A study of Drosophila melanogaster with 16 samples.

Results

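The combined state of an extra copy of chromosome arm 2L and of over-expressed MSL2 was described in male larvae of Drosophila melanogaster, by setting the deposited mean of MSL2-trisomy 2L males against that of normal diploid males, gene by gene. MSL2-trisomy 2L males account for 3 of the 16 samples of the series, and 24266 of 28705 listed transcripts have a mean in both groups. These males carry the genotype XY,AAA of the labels with 3 copies of 2L, together with MSL2 transgenes, and whole third-instar larvae grown at 25 °C were pooled for RNA. They are offspring of mothers from a y stock with C(2L)dp, a compound chromosome that joins the 2L arms, and with F(2R), free 2R arms marked by bw, and of fathers homozygous for MSL2 transgenes inserted on 2R. Trisomy 2L males without MSL2 had the same kind of mothers and Canton S fathers, also with 3 samples in the labels, and the diploid larvae are of the Canton S stock. The promoter of the transgenes is not given in the sources used here. Sons of such crosses take their X from the y mothers, so trisomic and diploid males differ in X chromosome and background as well as in 2L dosage. Both trisomic groups differ in the stock of their fathers, so MSL2 and paternal background cannot be told apart in any value between them. The diploid libraries belong to no sample of this series and were sequenced in another batch with shorter single-end reads, so that genotype, strain, batch and read type cannot be told apart in any value against the diploid.

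Male flies have a single X, and the MSL complex, made of the proteins MSL1, MSL2, MSL3, MLE and MOF and of the noncoding RNAs roX1 and roX2, binds that X and acetylates lysine 16 of histone H4. MSL2 is the component that females lack, since SXL blocks its translation, while males already make it. An additional copy of a chromosome arm raises the template number of the genes on it, and genes elsewhere in a trisomic genome are often described as changing in the opposite direction, the inverse dosage effect. The question addressed here is how the expression of individual genes and functional groups stands in males that carry both the extra 2L and more MSL2.

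Each group is given as 1 mean of CPM (counts scaled to the mapped reads of a library) made by the authors, so there is no replicate error, no test and no p-value for any value, and the depth behind the means is unknown. A gene is counted here where the average of both means is at least 1 CPM, and it is called higher or lower where the ratio of the means is at least 2-fold. Ratios use the transcripts with both means, while single genes are given by their level over all their transcripts. Levels are not per length and are compared between groups only, never between genes. A second mean of diploid males, from the table of sex chromosome aneuploids that was normalized separately, was used as another reference. The diploid means themselves differed: of 11234 genes, 10.2% were at least 2-fold higher and 20.1% at least 2-fold lower in the second diploid mean than in the first. For that reason the level of a gene is given in 4 means, of diploid males, of diploid males in the second table, of trisomy 2L males and of MSL2-trisomy 2L males, and values without further words follow this order. For genes and gene groups, ratios against the second diploid mean are over all transcripts of a gene.

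msl-2, the gene of the transgenes, stood highest in MSL2-trisomy 2L males. It averaged 22.6 CPM in diploid males, 6.97 CPM in the second diploid mean, 52.8 CPM in trisomy 2L males and 266 CPM in MSL2-trisomy 2L males, which is 11.8-fold above the first diploid mean and 5.04-fold above trisomy 2L males. The gene itself lies on 2L (Release 6, 3462218 to 3466112), so trisomy 2L males also carry an extra copy of it, and both listed transcripts of the gene were higher in MSL2-trisomy 2L males than in trisomy 2L males, at 76.9 against 31.9 CPM and at 189 against 20.9 CPM. No other protein subunit of the complex was called. msl-1, which holds the complex together and also lies on 2L, averaged 23.0 and 27.1 CPM in the diploid means, 42.8 CPM in trisomy 2L males and 44.6 CPM in MSL2-trisomy 2L males, a log2 ratio of 0.96 against the first diploid mean. mof, the acetyltransferase of the complex, averaged 15.9, 17.2, 15.3 and 14.6 CPM in the same order, and msl-3, a chromodomain subunit, 24.8, 18.9, 19.1 and 19.4 CPM. The 4 means of mof span a narrow range, and those of msl-3 lie close together apart from the first diploid mean. mle, an RNA helicase, averaged 35.4 CPM in the first and 91.5 CPM in the second diploid mean, 44.8 CPM in trisomy 2L males and 32.5 CPM in MSL2-trisomy 2L males.

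The noncoding RNAs of the complex did not follow msl-2. roX1 averaged 566 CPM in diploid males, 242 CPM in the second diploid mean, 119 CPM in trisomy 2L males and 152 CPM in MSL2-trisomy 2L males, so both trisomic means were under both diploid means. roX2 averaged 9.23, 47.8, 5.01 and 8.89 CPM in the same order, and its place relative to the diploid depends on which diploid mean is taken. Among partners of the complex, JIL-1, a histone H3 kinase enriched on the male X, averaged 26.2 and 24.4 CPM in the diploid means, 32.2 CPM in trisomy 2L males and 77.0 CPM in MSL2-trisomy 2L males. This rests on 1 of its 3 transcripts, which was 62.9 CPM in MSL2-trisomy 2L males, 18.6 CPM in diploid males and without a value in the second diploid mean. Over the transcripts with both values, the log2 ratio of JIL-1 against the second diploid mean was -0.79. Top2, a topoisomerase encoded on 2L, averaged 52.4, 134, 246 and 247 CPM, so both trisomic means were above both diploid means. Clamp, the zinc finger protein that binds the GAGA-rich entry sites of the complex, averaged 84.4, 61.5, 94.3 and 90.4 CPM. Sxl, the female-determining inhibitor of msl-2 translation, averaged 60.4, 19.2, 29.8 and 22.7 CPM, and its log2 ratio is -1.78 against the first diploid mean and 0.24 against the second.

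By chromosome arm, genes on the trisomic arm 2L stood above those on the other autosomes. The median log2 ratio of transcripts was 0.13 on 2L, -0.04 on X and -0.53 on the small chromosome 4, and the arms 2R, 3L and 3R had -0.24, -0.31 and -0.22. Against the second diploid mean the medians were 0.38 for 2L, -0.05 for X and -0.19 for chromosome 4, with -0.07, -0.08 and -0.03 for 2R, 3L and 3R. The gap between 2L and the other autosomes was thus 0.38 against the first diploid mean and 0.44 against the second, while the gap between X and the other autosomes was 0.21 against the first and 0.017 against the second. Y-linked transcripts had a median of -1.07 over 67 transcripts. For trisomy 2L males without MSL2, set against the first diploid mean, the medians were 0.13 on 2L, -0.09 on X, -0.28 on the other autosomes, -0.34 on chromosome 4 and -0.66 on Y.

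**Figure D1:**
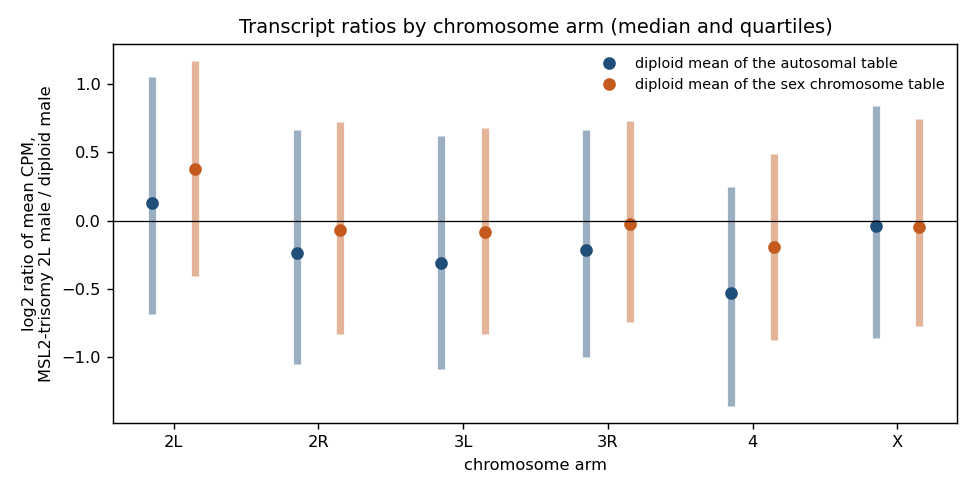
Median log2 ratio (points) and quartiles (bars) of transcripts in MSL2-trisomy 2L males over diploid males, by chromosome arm on the horizontal axis, against both diploid means. Arm 2L has the highest median with both references (0.13 and 0.38), and the other autosomes lie below 0 with both.

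The spread within an arm was wide. Of 3579 transcripts on 2L with an average of at least 1 CPM, 26.4% had a ratio of at least 2, 17.9% a ratio of 1.25 to 2, 22.8% a ratio of 0.8 to 1.25, 15.9% a ratio of 0.5 to 0.8 and 17.0% a ratio under 0.5. On the other autosomes the corresponding shares of 11957 transcripts were 17.1%, 15.1%, 19.7%, 22.4% and 25.7%, and on X, with 2993 transcripts, they were 20.5%, 17.7%, 21.6%, 18.4% and 21.9%. The shares at higher ratios were thus larger on 2L than on X and the other autosomes, while many 2L transcripts lay below a ratio of 1.

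Along 2L, windows of 100 consecutive transcripts had a median above 0 in 36 of 47 cases, against 17 of 39 windows on X and 19 of 150 on the other autosomes. 44 of the 47 windows of 2L were above the median window of the other autosomes (-0.25), and 7 were above the highest of them (0.34). The highest window was the third from the telomere (0.99, transcripts starting between 773547 and 1186254). The lowest was the last full window, toward the centromere (-0.89, starts between 21452211 and 22102626). Windows were counted from the low coordinate, and transcripts left over after the last full window of an arm were in none. The 2 lowest windows of 2L after that one had medians of -0.55 and -0.38. A low window on the centromere side was also seen on 2R, where the first window was the lowest of its arm (-0.81). On 3R the first window lay at -0.51, and the lowest of the arm, elsewhere, at -0.58. On 3L the last full window lay at -0.36, well above the lowest of the arm (-0.90). Windows were set against the first diploid mean only. On X the windows ran from -0.56 to 0.37, without an arm-wide displacement to either side of 0.

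**Figure D2:**
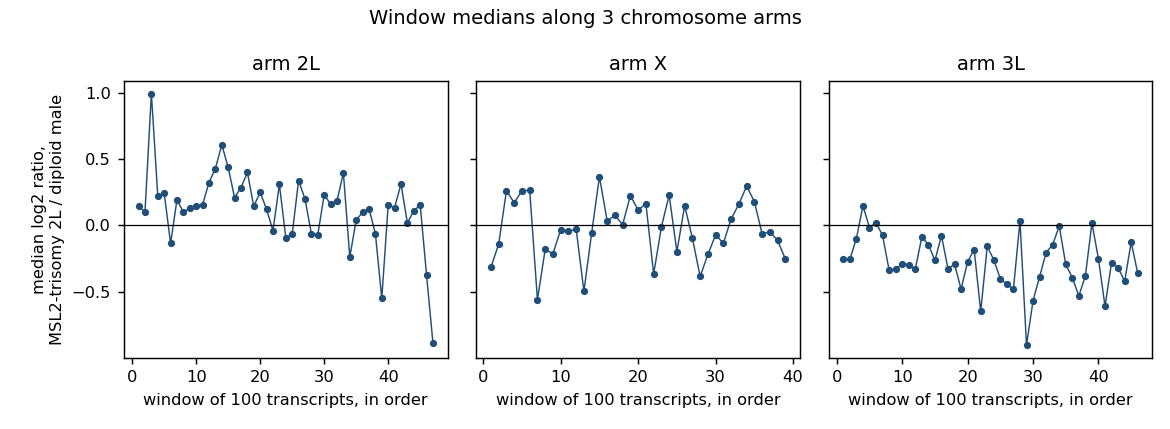
Median log2 ratio of MSL2-trisomy 2L males over diploid males in consecutive windows of 100 transcripts (horizontal axis, window number in chromosome order) on 2L, X and 3L, each point 1 window. On 2L 36 of 47 windows lie above 0 and the last lies at -0.89, whereas on 3L 4 of 46 windows lie above 0.

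Of 11822 genes counted, 1775 were called higher (15%) and 2377 lower (20.1%) in MSL2-trisomy 2L males than in diploid males. Against the second diploid mean the shares turned round, with 18.1% of 11234 genes higher and 10.2% lower. Genes past 2-fold in the same direction against the first diploid mean, both over transcripts with both means and over all transcripts, and against the second over all transcripts, numbered 832 higher (7.41%) and 631 lower (5.62%), and these are referred to below as called against both references. On 2L 291 of 2107 genes were higher and 46 lower by this rule (13.8% and 2.18%), on X 98 and 79 of 1794 (5.46% and 4.40%), and on chromosome 4 0 and 4 of 77. Trisomy 2L males without MSL2 differed from diploid males in similar numbers, with 13.3% of 11817 genes higher and 17.7% lower. MSL2-trisomy 2L and trisomy 2L males, whose fathers were of different stocks, differed less. In MSL2-trisomy 2L males 2.98% of 11817 genes were higher and 3.19% lower, and 83.5% lay within 1.5-fold of each other. Beside these, the median of all counted genes was -0.16 against the first diploid mean and 0.08 against the second, and the counts of each gene group below should be read against these shares and medians.

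Within most gene groups compared, the members encoded on 2L were higher than those encoded on the other autosomes. Members on X were left out of this comparison. 20 of the 56 groups had at least 3 members on 2L and 3 on the other autosomes. The median of the 2L members was the higher one in 19 of them, with either diploid mean. The median difference was 0.74 (0.58 against the second diploid mean). Tissue markers and the genes the study chose for embryo hybridization and RT-PCR are among these groups, and a gene can belong to several. Against the first diploid mean the difference was only 0.006 for stress and DNA damage genes and 0.049 for cell cycle and replication genes. In the aminoacyl-tRNA synthetases, which charge tRNAs, the 6 members on 2L had a median of 1.42 and the 24 on other autosomes -0.13. Against the second diploid mean these medians were closer, at 1.04 and 0.59. The values that follow are against the first diploid mean unless stated. In the vacuolar ATPase, the proton pump of acidic organelles, the medians were 0.84 for 5 members on 2L and -0.42 for 24 on the other autosomes. Complex I, the NADH dehydrogenase of mitochondria, had 0.61 for 8 members on 2L against -0.38 for 22, cytosolic ribosomal proteins 0.33 for 17 against -0.25 for 56, and mitochondrial ribosomal proteins 0.21 for 12 against -0.20 for 47. The group in which 2L members were not higher with the first diploid mean was that of insulin, TOR and Myc signalling (-0.63 for 4 against -0.49 for 8). With the second it was that of juvenile hormone genes (0.25 for 3 on 2L against 2.18 for 6 on the other autosomes).

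Enzymes of energy metabolism were among the groups with most members higher. In the tricarboxylic acid cycle, 8 of 14 genes were higher and none lower, 7 of them against both references, with a median log2 ratio of 1.22 (1.48 against the second diploid mean). kdn, the citrate synthase, averaged 81.7 and 78.7 CPM in the diploid means, 341 CPM in trisomy 2L males and 296 CPM in MSL2-trisomy 2L males. Acon, an aconitase encoded on 2L, averaged 279, 172, 885 and 786 CPM in the same order, and Mdh2, a mitochondrial malate dehydrogenase, 211, 134, 532 and 535 CPM. For each of these genes both trisomic means lay above both diploid means. In glycolysis, 7 of 12 genes were higher and 1 lower, 6 higher against both references, with a median of 1.03 (1.26 against the second diploid mean). PyK, the pyruvate kinase, averaged 154 CPM in each diploid mean, 775 CPM in trisomy 2L males and 691 CPM in MSL2-trisomy 2L males. ImpL3, the lactate dehydrogenase, averaged 101, 38.2, 489 and 432 CPM, and Pgk, the phosphoglycerate kinase on 2L, 86.6, 163, 471 and 368 CPM. Trisomy 2L males without MSL2 had 8 genes of the tricarboxylic acid cycle and 9 of glycolysis past 2-fold, and in the 6 genes just named their mean was the higher of the trisomic means except in Mdh2. The single gene called lower, Pglym78, had a log2 ratio of -3.61 over transcripts with both means, but averaged 63.9 and 148 CPM in the diploid means and 387 and 321 CPM in the trisomic means over all transcripts.

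The respiratory chain and the ribosome showed no such displacement. Complex I had 6 of 39 genes higher and 5 lower with a median of -0.02, complexes III and IV 2 of 19 higher and 6 lower with a median of -0.30, and the ATP synthase 2 of 15 higher and 1 lower with a median of -0.10. Single subunits stood out, such as ND-51, the NADH-binding subunit encoded on 2L, at 52.6, 58.3, 252 and 252 CPM, and UQCR-C1 of complex III at 128, 135, 449.8 and 458 CPM. COX7AL, named as a paralog of a subunit of complex IV, was lower against both references, at 48.4, 39.6, 16.8 and 16.2 CPM. Genes named as paralogs were counted with the subunits, and medians without them were not computed. Cytosolic ribosomal proteins had 11 of 88 genes higher and 2 lower against the first diploid mean with a median of -0.13, and 1 higher and 20 lower against the second with a median of -0.50. Their summed level was 121397 CPM in diploid males, 177400.0 CPM in the second diploid mean, 119852 CPM in trisomy 2L males and 136137 CPM in MSL2-trisomy 2L males. RpS2, a protein of the small ribosomal subunit encoded on 2L, took 6980 CPM of the last sum, and it averaged 124 CPM in diploid males, 1320.1 CPM in the second diploid mean and 175 CPM in trisomy 2L males. The level of RpS2 in MSL2-trisomy 2L males came from 1 of 3 transcripts (6958 CPM). RpL27, of the large subunit, was lower against both references, at 1818, 1991, 904 and 726 CPM.

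Of the aminoacyl-tRNA synthetases 10 of 33 were higher and 3 lower, 6 higher and none lower against both references, with a median of 0.44 (0.71 against the second diploid mean). SerRS, the seryl-tRNA synthetase on 2L, averaged 42.8 and 101 CPM in the diploid means, 170 CPM in trisomy 2L males and 543 CPM in MSL2-trisomy 2L males. AlaRS, on 2L, averaged 60.8, 95.7, 172 and 192 CPM, and ValRS, on 2R, 23.4, 22.3, 44.4 and 76.6 CPM. The order of the means was the same in SerRS and AlaRS, with MSL2-trisomy 2L males highest. TrpRS-m, a mitochondrial synthetase, was at 183 CPM in the first diploid mean and 82.2, 81.0 and 68.1 CPM in the others. Chaperones of unstressed cells had 7 of 15 members higher and none lower with a median of 0.90 (0.45 against the second diploid mean), and 2 of these were called against both references. Calr, the calreticulin of the endoplasmic reticulum, averaged 431, 710.2, 967 and 1126 CPM. Proteasome subunits had 4 of 32 higher and 1 lower with a median of -0.30, and -0.46 against the second diploid mean.

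Of 6 listed enzymes encoded on 2L, 4 were higher and none lower, the 4 against both references. Their median was 1.59, and 2.33 against the second diploid mean. Adh, the alcohol dehydrogenase, averaged 203 CPM in diploid males, 273 CPM in the second diploid mean, 2242 CPM in trisomy 2L males and 1928 CPM in MSL2-trisomy 2L males. FASN1, a fatty acid synthase, averaged 135, 75.2, 1045 and 1068 CPM in the same order. Both ratios, 9.48-fold for Adh and 7.89-fold for FASN1 against the first diploid mean, exceeded the ratio of 3 copies to 2. Got2, a mitochondrial aspartate aminotransferase, averaged 127, 99.2, 443 and 449.6 CPM. Mdh1, the cytosolic malate dehydrogenase, averaged 542 and 354 CPM in the diploid means and 1057 and 1043 CPM in the trisomic means, a log2 ratio of 0.94. Ddc, the dopa decarboxylase needed for hardening of the cuticle, averaged 123 and 167 CPM in the diploid means and 51.3 and 66.7 CPM in the trisomic means. Its mean in MSL2-trisomy 2L males was past 2-fold lower against the second diploid mean only. The lysosomal alpha-mannosidases, which trim sugars from glycoproteins and are encoded by neighbouring genes at 2 places on 2L, had 4 of 5 members higher, all 4 against both references. LManVI averaged 39.9, 23.0, 621 and 1242 CPM, LManIII 2.42, 1.26, 73.8 and 59.8 CPM, and LManV 48.5, 9.25, 603 and 372 CPM, while LManI, at 59.0, 45.8, 73.3 and 89.6 CPM, was not called. The sharing of reads among these paralogs was not tested.

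Groups of digestive enzymes differed from each other in the share of members called. Of the amylases and maltases, which break starch and sugars, 10 of 13 were higher and 1 lower, 7 higher against both references, with a median of 1.80 (1.57 against the second diploid mean). Amy-p, an amylase, averaged 5.41 and 24.4 CPM in the diploid means and 148 and 119 CPM in the trisomic means. Amy-d, the neighbouring amylase, averaged 18.2, 100, 186 and 271 CPM, and Mal-A4, a maltase, 9.35, 3.19, 125 and 114 CPM. Of the 13 genes, Mal-B1 and Mal-B2 lie on 2L, and Mal-B2 is the one called lower. The Jonah serine proteases had 8 of 15 higher and none lower, 4 of them against both references, with a median of 1.07 (0.63 against the second diploid mean). The 3 Jonah genes on 2L had the highest ratios of the family: Jon25Bii averaged 173, 731, 1404 and 2040.1 CPM, and Jon25Biii 1555, 899, 5061 and 6392 CPM. Of the trypsins, 4 of 11 were higher and 1 lower, and the 4 were called against both references. betaTry averaged 279, 329, 448 and 1285 CPM and gammaTry 260, 474, 295 and 1176 CPM, so these 2 near-identical neighbours were high in MSL2-trisomy 2L males alone. lambdaTry, at 8.56, 3.93, 13.3 and 31.9 CPM, was likewise at least 2-fold above each of the other means. epsilonTry, the abundant trypsin of the same cluster, went the other way, at 3021 and 1141 CPM in the diploid means and 731 and 991 CPM in the trisomic means. In a whole larva, a larger number of cells of a type and more RNA per cell cannot be told apart, here and for every tissue marker below.

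**Figure D3:**
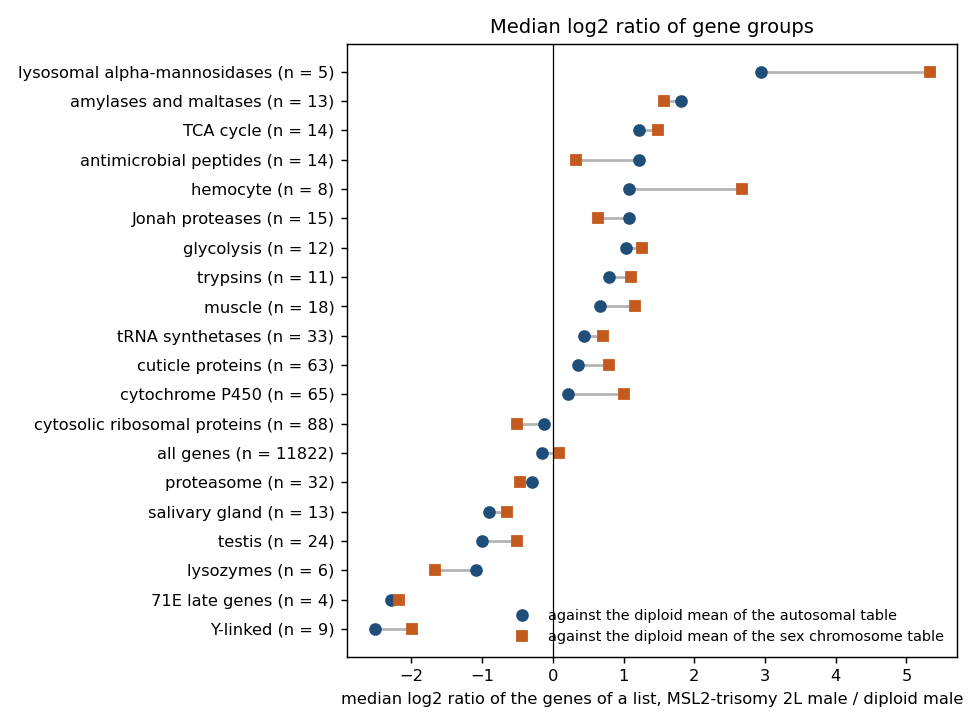
Median log2 ratio of MSL2-trisomy 2L males over diploid males (horizontal axis) of 19 gene groups and of all genes, with the number of counted genes, against the diploid mean of the autosomal table (circles) and against that of the sex chromosome table (squares). Amylases and maltases (1.80 and 1.57) and enzymes of the tricarboxylic acid cycle (1.22 and 1.48) are far to the right with both references, Y-linked genes (-2.52 and -1.99) far to the left, and ribosomal proteins move from -0.13 to -0.50.

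Muscle genes had 7 of 18 members higher against both references, with a median of 0.66 (1.16 against the second diploid mean). Prm, the paramyosin of thick filaments, averaged 214 and 238 CPM in the diploid means, 1522 CPM in trisomy 2L males and 1071 CPM in MSL2-trisomy 2L males. Tm2, a tropomyosin, averaged 346, 453, 1447 and 1059 CPM, and up, a troponin T, 279, 465, 1531 and 1043 CPM. In these 3 genes the trisomic means were all above the diploid means, and trisomy 2L males without MSL2 were the highest. The giant proteins of the sarcomere were exceptions: sls averaged 68.3, 11.3, 155 and 11.0 CPM, and bt, on chromosome 4, 138, 64.3, 144 and 34.9 CPM. Markers of blood cells had 5 of 8 members higher, 4 of 7 against both references. PPO2, a prophenoloxidase of crystal cells, averaged 61.0, 17.5, 307 and 361 CPM, Pxn, the peroxidasin of hemocytes and fat body, 83.4, 48.0, 285 and 362 CPM, and Hml, the hemolectin of plasmatocytes, 107, 36.4, 303 and 232 CPM. Neuronal markers had none of 11 higher and 2 lower, and markers of imaginal discs none of 9 in either direction. Markers of the fat body had 1 of 7 members higher and 1 lower, and 4 higher and none lower against the second diploid mean. Larval serum proteins of the fat body depended on the reference. Lsp1beta, on 2L, averaged 29571, 2492, 52363 and 46651 CPM, above both diploid means by very different ratios. Lsp2 averaged 14842, 2830, 6668 and 5051 CPM, so its trisomic means lay below the first diploid mean and above the second.

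Cuticle proteins were uneven. Of 63 measured members of 114 in the group, 22 were higher and 7 lower, 20 higher and 2 lower against both references, with a median of 0.36 (0.80 against the second diploid mean). Most of the genes that stood higher had diploid levels of a few CPM: Lcp65Ag3 averaged 1.80 and 2.22 CPM in the diploid means, 60.3 CPM in trisomy 2L males and 102 CPM in MSL2-trisomy 2L males, Cpr47Eg 5.88, 0.25, 163 and 261 CPM, and Cpr65Ax2 1.93, 0.032, 90.5 and 94.8 CPM. The last of these and the Lcp65Ag genes are near-copies of their neighbours, so reads may have been divided among them. Lcp1, an abundant larval cuticle protein, was lower, at 5880 and 4811 CPM in the diploid means, 3391 CPM in trisomy 2L males and 1732 CPM in MSL2-trisomy 2L males. Cuticle genes are switched with the moult, and the exact age of the larvae within the third instar was not tested.

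Detoxification enzymes held both directions. Of the cytochrome P450 genes 15 of 65 were higher and 9 lower, 12 higher and 3 lower against both references, with a median of 0.22 (1.00 against the second diploid mean). Cyp6a2, a P450 known from insecticide-resistant strains, averaged 0.079 CPM in diploid males, 0.85 CPM in the second diploid mean, 21.8 CPM in trisomy 2L males and 47.4 CPM in MSL2-trisomy 2L males. Cyp6a8 averaged 9.72, 4.36, 43.6 and 48.4 CPM. Cyp4e3, on 2L, was lower in spite of the extra copy, at 111, 249, 40.7 and 5.15 CPM. Of the glutathione S-transferases 4 of 33 were higher and 3 lower, with GstE7 at 5.02, 10.8, 30.3 and 36.6 CPM and GstE8, of the same cluster, at 24.1, 25.5, 23.7 and 3.76 CPM. Gclc and Gclm, the subunits of the enzyme that starts glutathione synthesis, averaged 23.9, 39.4, 87.4 and 121 CPM and 68.4, 82.9, 98.5 and 201 CPM, and were called against both references. Prx3, the mitochondrial peroxiredoxin, averaged 59.4 and 36.2 CPM in the diploid means and 5.38 and 6.17 CPM in the trisomic means.

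Of 6 measured lysozymes, 3 had a mean in MSL2-trisomy 2L males at least 2-fold below each of the 3 other male means, and the others did not. Of the 6, 3 were lower against both references and 1 was higher against the first diploid mean only, with a median of -1.09 (-1.66 against the second diploid mean). LysB averaged 888 CPM in diploid males, 755 CPM in the second diploid mean, 1691 CPM in trisomy 2L males and 153 CPM in MSL2-trisomy 2L males. LysE averaged 92.6, 242, 148 and 17.6 CPM and LysC 60.1, 25.7, 98.9 and 12.1 CPM in the same order. The 3 genes were not low in trisomy 2L males without MSL2, where LysB and LysC had their highest mean. LysS, at 677, 1840.3, 1088 and 749 CPM, and LysX, at 77.3, 104, 63.8 and 108 CPM, were not called. LysB, LysC and LysE code for nearly the same digestive lysozyme and lie side by side on 3L, so their reads can be exchanged between them. Antimicrobial peptides had 8 of 14 higher and 1 lower with a median of 1.21, but the median against the second diploid mean was 0.33, and -0.06 over the transcripts with both of those means. DptA, a diptericin, averaged 28.3, 70.1, 260.3 and 160.3 CPM. Drsl2, a drosomycin-like peptide, was the lower one, at 37.4, 23.1, 9.34 and 0.61 CPM.

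More genes of the testis and of the Y chromosome were called lower than higher. Of the testis genes 13 of 24 were lower and 1 higher, 7 lower against both references, with a median of -1.01 (-0.50 against the second diploid mean). dj, a protein of the sperm tail, averaged 209 and 95.7 CPM in the diploid means, 46.8 CPM in trisomy 2L males and 25.8 CPM in MSL2-trisomy 2L males. Mst84Dd, of a cluster of sperm proteins, averaged 104, 85.5, 35.1 and 23.5 CPM, and soti, needed for the individualization of spermatids, 131, 88.5, 45.4 and 41.6 CPM. betaTub85D, the tubulin of the male germ line, was at 377, 449.5, 295 and 332 CPM and was not called. Of the Y-linked genes, 8 of 9 were lower and FDY higher, and the 3 with a value in the second diploid mean were also lower against it: kl-5, a dynein heavy chain of the sperm axoneme, averaged 11.4 and 9.28 CPM in the diploid means and 2.34 and 1.24 CPM in the trisomic means. Genes were classed by setting trisomy 2L males, with and without MSL2 averaged, against trisomy 2L females without MSL2. Those at least 2-fold higher in males had a median of -0.94 over 2511 genes. The median was 0.04 over 8732 genes without such a bias and -0.27 over 198 genes at least 2-fold higher in females. These classes were made with the trisomic male means that also enter the ratio. Against the second diploid mean the medians were -0.18 for male-biased, 0.15 for unbiased and -0.50 for female-biased genes, so that the female-biased genes were the lowest with that reference. The male-biased genes on 2L had a median of -0.63 and those on the other autosomes -1.08 against the first diploid mean. Against the second these medians were 0.26 and -0.29, so the sign on 2L depended on the reference.

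Genes of the salivary gland, among them the glue genes expressed late in the third instar, held both directions. Of 13 salivary gland genes 6 were lower and 3 higher, 4 and 3 against both references, with a median of -0.90 (-0.65 against the second diploid mean). Sgs5 averaged 8373 CPM in diploid males, 18910.3 CPM in the second diploid mean, 2419 CPM in trisomy 2L males and 2714 CPM in MSL2-trisomy 2L males, and Sgs8 averaged 3172, 8722, 561 and 964 CPM. ng3, another gene of the gland, was higher, at 172, 201, 923 and 852 CPM. Of the 71E late genes, which respond to ecdysone at the end of larval life, 3 of 4 were lower against both references, among them Eig71Ea at 6.20, 6.49, 0.82 and 1.65 CPM. Of 16 other genes of the ecdysone response, 1 was higher and 1 lower, with a median of 0.45 (-0.66 against the second diploid mean). The lower one, Hr3, an ecdysone-induced nuclear receptor, averaged 6.36, 12.8, 2.55 and 1.86 CPM. In Sgs5, Sgs8 and Eig71Ea both trisomic means lay below both diploid means.

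Few genes had a mean in MSL2-trisomy 2L males that stood apart from all other male means. The mean of MSL2-trisomy 2L males was at least 2-fold above each of the 3 other male means for 109 of 11231 genes (0.971%) and at least 2-fold below each for 139 (1.24%). On 2L these were 22 genes above and 12 below of 2107, on X 9 and 7 of 1794, and on the other autosomes 77 and 120 of 7324. The shares above were 1.04% on 2L, 0.502% on X and 1.05% on the other autosomes, and the shares below were 0.570%, 0.390% and 1.64%. These shares rest on few genes, and their difference between chromosomes was not tested. Beside msl-2, RpS2, SerRS, betaTry and gammaTry, the genes above included poe, a giant calmodulin-binding protein encoded on 2L, at 55.8, 12.3, 160 and 915 CPM. UGP, the UDP-glucose pyrophosphorylase, averaged 64.0, 61.5, 73.7 and 379 CPM, and nearly all of its level in MSL2-trisomy 2L males came from 1 of 3 transcripts (375 CPM). Rho1, a small GTPase of the cytoskeleton, averaged 356, 269, 291 and 864 CPM. In UGP and Rho1 the 3 other means lay close together. Hsp22, a small heat shock protein, averaged 1.45, 17.1, 2.88 and 129 CPM, while the gene CG4456 that overlaps it averaged 117, 35.1, 43.7 and 12.4 CPM. Summed, the pair gave 119, 52.2, 46.6 and 141 CPM, and the division of reads between them was not tested.

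Below the 3 other means lay, beside LysB, LysC and LysE, AsnS, the asparagine synthetase, at 80.8, 79.6, 104 and 11.5 CPM. Tl, the Toll receptor of embryonic patterning and immunity, averaged 61.1, 61.0, 45.7 and 8.59 CPM, a log2 ratio of -2.83 against each diploid mean. Sesn, the sestrin that restrains TOR signalling, averaged 51.6, 60.3, 50.1 and 14.5 CPM. AsnS, Tl and Sesn each had 3 means within a narrow range and a far lower one in MSL2-trisomy 2L males. These genes were chosen after their values were seen. Of the genes above, 45.9% overlap another listed gene, of those below 51.1%, and of all 11231 genes 46.7%, and the strand used in counting is not given in the sources used here.

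**Figure D4:**
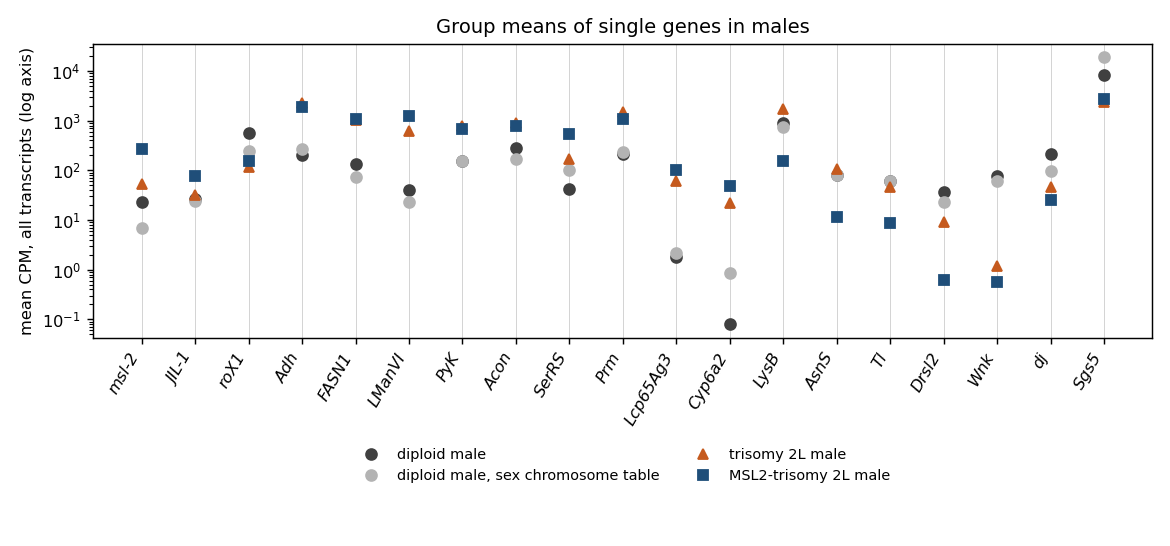
Mean CPM over all transcripts (log axis) of 19 single genes in diploid males, in the second diploid mean and in both trisomic groups. msl-2 and SerRS are highest in MSL2-trisomy 2L males, LysB, AsnS, Tl and Drsl2 are lowest there, and Adh, PyK and Prm are high, and dj and Sgs5 low, in both trisomic means.

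The largest single changes were taken among genes with an average of at least 10 CPM. Of the 10 largest rises, 8 were also called against both references. Cyp6a2 was the second of them, after Ppm1, a phosphatase gene, at 0.093 CPM in diploid males, 43.0 CPM in trisomy 2L males and 71.4 CPM in MSL2-trisomy 2L males, with no value in the second diploid mean. TwdlO, a cuticle protein of the Tweedle family, averaged 0.089, 0.21, 3.25 and 22.0 CPM, obst-J, a chitin-binding protein, 0.91, 45.3, 42.6 and 117 CPM, and CG3819 0.67, 40.1, 120.1 and 232 CPM. Duox, the oxidase that makes hydrogen peroxide at the gut surface, averaged 0.099 CPM in the first diploid mean but 15.3, 25.1 and 24.9 CPM in the others. The remaining genes of this set were CG13795, CG33346, CG4887 and CG18607. Of the 10 largest falls, 4 were called against both references, and 4 others lost their 2-fold difference or changed sign when all transcripts of the gene were summed. Wnk, a kinase that controls ion transport, averaged 77.2 and 62.0 CPM in the diploid means, 1.19 CPM in trisomy 2L males and 0.56 CPM in MSL2-trisomy 2L males. tefu, the ATM kinase of telomere protection and DNA damage, averaged 26.4, 20.9, 2.61 and 0.44 CPM, and ClC-a, a chloride channel, 27.3, 10.9, 15.5 and 1.13 CPM. In contrast, CG15155 was at 89.8 CPM in the first diploid mean and at 2.47, 2.37 and 2.29 CPM in the 3 others, so its call rests on the first diploid mean. CG34459, CG7255, CG8668 and Vps13 were the genes that depended on the transcripts summed, and CG7255, at 152, 55.9, 35.1 and 480.3 CPM over all transcripts, stood highest in MSL2-trisomy 2L males.

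On X the largest rises were CG9672 (13.2, 40.9, 160 and 248 CPM), CG9981, arg, an arginase gene, CG14814 and CG9509, and the largest falls were CG8184, CG33223, Tob, CG32719 and CG33665. arg averaged 3.74 and 2.67 CPM in the diploid means and 39.5 and 42.3 CPM in the trisomic means, and Tob, an antiproliferative protein, 64.0, 18.1, 14.3 and 5.07 CPM. On chromosome 4 no gene of 80 was called higher and 19 were called lower (23.8%) against the first diploid mean. On 2R, 3L and 3R 13.5%, 12.1% and 11.9% of genes were higher and 22.2%, 23.5% and 21.7% lower. Against both references 5.19% of genes on chromosome 4 were lower, beside 5.62% of all genes. The largest rise on chromosome 4 was apolpp, the apolipophorin that carries lipids in the hemolymph, at 2127, 1785, 4248 and 3777 CPM. The other rises of the first 5 were onecut, ATPsynbeta, mav and Gyf. Its largest falls were bt, unc-13, CG32006, NfI and Pur-alpha. On 2L, beside the genes already named, CG11034 averaged 218, 39.5, 34.0 and 14.8 CPM and l(2)k05911 60.6, 43.2, 3.27 and 4.95 CPM, so single genes of the trisomic arm were lower than in both diploid means.

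Of the genes that mark the parental stocks, y was at or under 0.24 CPM in each mean that lists it. dpy, the gene of the dp alleles, a giant matrix protein on 2L, averaged 35.9, 14.6, 33.1 and 67.8 CPM, highest in MSL2-trisomy 2L males, with a log2 ratio of 0.87 against the first diploid mean and 2.22 against the second. bw was not analysed here. Among the genes that the study followed by hybridization to embryos, 3 of 15 were higher and 3 lower, and RpS2 alone was called against both references. Hsc70-4, the cytosolic chaperone, averaged 1873, 2789, 3801 and 4019 CPM, and Mal-A3, a maltase, 19.4 CPM in diploid males, 148 CPM in trisomy 2L males and 172 CPM in MSL2-trisomy 2L males with no value in the second diploid mean. TER94, an ATPase of membrane fusion and protein turnover, averaged 406, 787, 502 and 618 CPM, ERp60, a protein disulfide isomerase, 550.0, 549, 622 and 677 CPM, and scf, a calcium-binding protein, 81.6, 134, 113 and 150 CPM. None of these 3 was called. Vha44, of the vacuolar ATPase, was at 137, 19.2, 133 and 64.1 CPM and CG1894, a putative histone acetyltransferase, at 22.6, 0.99, 11.6 and 2.68 CPM, so that both lay between the diploid means. A further set of genes was chosen by the study for RT-PCR. Of these 17, 1 was higher and 4 were lower, 3 lower against both references: LysB, CG4716, at 99.9, 87.3, 48.6 and 17.9 CPM, and CG33468, at 1.53, 2.62, 1.63 and 0.66 CPM. CG16758 was the fourth, at 273, 155.7, 134 and 132 CPM. The gene called higher, CG42694, had a log2 ratio of 2.25 over transcripts with both means and -2.15 over all transcripts. Karl, a lipocalin encoded on X, averaged 29.7, 19.6, 40.7 and 51.1 CPM, and Aac11, an inhibitor of apoptosis on 2L, 135, 125, 163 and 182 CPM, and neither was called.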

How the data were processed

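RNA of whole larvae was sequenced by the authors, and the reads were aligned with HISAT2 and counted with StringTie. The deposited CPM values are, per the study's methods, counts divided by mapped reads that the authors adjusted for sequencing batch with ComBat, stripped of values not above 0 and averaged over the replicates of a group. The authors' ratio columns hold aneuploid group means divided by diploid means and were not used here. For each transcript the mean of MSL2-trisomy 2L males was divided by the mean of diploid males, and transcripts were summed by gene symbol (46 rows whose symbol names no single gene were left out). No test between libraries is possible on 1 mean per group, so a 2-fold ratio stands in for a call. Levels of trisomy 2L males without MSL2 are a mean of libraries that the sources used here do not fully name. The members and the 56 gene lists (1125 symbols) were chosen with earlier results of these data known. Named are, for each list, up to 4 members of highest level or largest change, the 10 largest rises and falls at an average of at least 10 CPM, the 5 largest on 2L, X and 4 (on 4 at 1 CPM), the stock markers and the genes that the study followed by embryo hybridization or RT-PCR. Further genes that stand apart from the other means, and some list members outside the first 4, were chosen after their values were seen. Ratios of genes, counts past 2-fold and the trimmed-mean scaling were checked on simulated data, and windows and medians by arm were not. Alternatives were scalings to equal totals, to equal totals without the 100 highest transcripts and by a trimmed mean of ratios, minimums of 5 and 10 CPM, pseudocounts of 0.1, 0.5 and 1 CPM, folds of 1.5 and 4, other ways of summing transcripts and the second diploid mean. Coordinates are those of Release 6. The calculations ran in Python 3.11.15 with pandas 2.3.3, numpy 2.4.6 and scipy 1.17.1, and matplotlib 3.10.9 drew the plots.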

Additional observations from a re-analysis of the deposited data

How the results depend on the processing

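No paired analysis was possible because the tables hold 1 mean per group, and for the same reason no replicate could be left out. Depth is unknown. The scalings (equal totals, equal totals without the 100 highest transcripts, trimmed mean) subtract 0.11, 0.063 and -0.13 from every log2 ratio, which gave medians of 0.022, 0.064 and 0.26 on 2L, -0.15, -0.11 and 0.089 on X and -0.36, -0.32 and -0.12 on the other autosomes. Of all calls, 42.8% were higher as deposited and 36.5%, 39.0% and 50.9% with these scalings. Minimums of 5 and 10 CPM gave 0.17 and 0.19 on 2L and 0.44 and 0.46 for 2L minus the other autosomes. Pseudocounts of 0.1, 0.5 and 1 CPM gave -0.22, -0.16 and -0.12 on the other autosomes and 0.33, 0.23 and 0.16 for 2L minus these, and those of 0.5 and 1 CPM gave 0.072 and 0.048 on 2L and 0.14 and 0.10 for X minus the other autosomes. The second diploid mean gave 0.38 on 2L, -0.064 on the other autosomes, 0.44 for 2L minus these and 0.017 for X minus these. The sign of 2L minus the other autosomes was the same in each alternative run.

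Counts of genes higher and lower were 1166 and 1474 at a minimum of 10 CPM, 2941 and 3898 at 1.5-fold, 491 and 546 at 4-fold and 832 and 631 when past 2-fold in 3 ways, a rule added after seeing the data. With the second diploid mean 1345 were lower and 57.5% of calls were higher, and 1220 were lower and 62.3% higher when all transcripts were also summed. The cause was not tested. None of the 56 lists crossed the median of all genes with the scalings, and 16 did with the second diploid mean, where the medians of antimicrobial peptides and of immune-induced genes with Turandots turned to -0.056 and -0.15 over transcripts with both means. Of 123 named genes past 2-fold, 117 stayed so over all transcripts, and of 116 with a value in the second diploid mean 92 did. Reversed over all transcripts were CG42694 (-2.15), CG7255 (1.66) and Pglym78 (2.33). With the second diploid mean CG1894 (1.44), CG7255 (3.10), CG8668 (0.29), CG9981 (-1.72), JIL-1 (-0.79), Pglym78 (1.12) and Vha44 (1.13) were reversed, and with all transcripts as well CG1894 (1.44), CG7255 (3.10), CG8668 (0.29), Pglym78 (1.12), Sxl (0.24) and Vha44 (1.74).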
